A study of Mus musculus with 9 samples.

Results

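The genes described here encode the proteins of the mitochondrial ribosome. They were taken as every gene whose symbol is Mrpl or Mrps followed by a number, and 76 such genes (47 Mrpl, 29 Mrps) were measured among the 18194 genes on the array. Expression was measured on Affymetrix mouse arrays in bone marrow stromal cells, which the labels describe as sorted for lack of CD45.1 and Ter119 (surface proteins of blood cells and of red cell precursors) from mice of the FVB/NJ strain. There were 3 arrays of wild type mice (WT), 3 of leukemic recipients in the early phase, when 1 to 5% of marrow cells were leukemic (E), and 3 of leukemic recipients in the medium phase, at 5 to 50% (M). The design set out to follow stromal gene expression as leukemia advances. The labels call the arrays of a group biological replicates and do not name the leukemia, the age of the mice or the number of mice behind an array.

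Mitochondria carry their own ribosome, which translates the small set of respiratory chain and ATP synthase proteins encoded in mitochondrial DNA. Its RNA comes from mitochondrial DNA, but every one of its proteins is encoded in the nucleus, made in the cytosol and imported. Some of these proteins hold the position of a bacterial counterpart, and others hold positions found only in mitochondria. They are classed here in this way, apart from Mrps18a, as given below. Mrpl symbols stand for the large subunit, which forms peptide bonds, and Mrps symbols for the small subunit, which reads the messenger RNA. The names do not always follow the structure: Mrps18a and Mrps30 sit in the large subunit, and the product of Mrps36 is now regarded as a part of the 2-oxoglutarate dehydrogenase complex.

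Values are the deposited log2 MAS5 signals (MAS5 is the array maker's method to turn probe brightness into 1 value for each set of probes). Each gene was read from its brightest probe set, judged by the mean of the 9 arrays, and the 9097 genes whose mean was at or above 6.83 were tested. All 76 members lay above that threshold. A gene was called higher or lower when limma's adjusted p was under 0.05. The SE is that of the fitted model, and levels of different genes are not compared, since probe sets differ in brightness.

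The 9 arrays were not alike in ways that touch every result on M. The root mean square difference (log2) of a pair of arrays was 0.22 to 0.25 within WT and within E, 0.21 to 0.44 within M, and 1.10 to 1.35 for a WT array against an M array. Replicate 3 of M was the lowest of the 3 M arrays in 55 of the 76 members (72.4%), against 45.6% of all genes tested. Marker genes of the stroma, the cells the labels name, and of other cells moved with the groups. All 10 mesenchymal stroma markers rose in M, from a mean of 7.66 to 7.97 in the WT arrays and 7.75 to 7.93 in E to 11.64 to 11.82 in M. All 9 granulocyte markers tested rose in M, and the list averaged 7.21 to 7.50 in WT, 8.73 to 9.07 in E and 11.80 to 12.18 in M. In E against WT, 6 of the 9 were called higher, 1 lower and 2 were not called. Of all genes tested 0.462% were called higher in E and 1.65% lower. Of 9 pan-leukocyte markers 7 rose and 2 fell in M, and 3 of 8 erythroid markers fell. Among all genes tested 25.3% were called higher in M than in WT and 43.5% lower, so the erythroid count is not above that share. Only 3 of the 7 B lineage markers on the array were tested, and these 3 rose. The list averaged 4.91 to 5.38 in WT, 5.75 to 6.27 in E and 6.55 to 7.51 in M. The filter takes the mean of all 9 arrays, so markers high in M alone can pass it through M. None of the 6 endothelial markers had a mean over the 9 arrays above the threshold, and no marker was at exactly 0 in any array. None of the 6 was therefore tested, but their mean was 4.41 to 5.27 in WT, 4.31 to 4.90 in E and 6.43 to 7.14 in M, and Tek, Cdh5, Emcn and Kdr read higher in every M array than in any WT or E array. Values of the rest of the list, Pecam1 and Tie1, are not given here. Tek, an example not set by a rule, read 5.45 to 5.51 in WT, 5.33 to 5.84 in E and 8.45 to 8.79 in M. The mesenchymal markers were a median of 4.18 (log2) lower in WT than in M. Erythroid markers averaged 11.11 ± 0.11 (SD, n = 3) in WT, 10.68 to 10.88 in E and 11.43, 11.65 and 10.50 in the 3 M arrays, so that M replicate 3 lay apart from the other two. Of 9 proliferation genes 8 fell in M (median of the 9 -0.65), against 43.5% of all genes tested. Their means were 12.16 to 12.21 in WT, 11.99 to 12.05 in E and 11.19 to 11.73 in M. The part of these changes in the results on the members was not tested, and in bulk RNA fewer cells of a type and less RNA per cell cannot be told apart.

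Promoters of 5 members are shown because these genes mark the results that follow: Mrps27 fell most in M, Mrps18b came closest to a call in E, Mrpl18 fell with one of the smallest p values, Mrps11 starts back to back with another member, and Mrps6 was the 1 member that rose. Each run holds 300 bases, 250 before and 50 after the start of the gene, written 5′ to 3′ on the strand of the gene, from RefSeq (GRCm38.p6). Capitals mark exact matches, on either strand, to 3 short sequences: GCGCATGCG, bound by NRF1, CCGGAAGT, bound by ETS factors such as GABPA, and AAGATGGC, bound by YY1. All these factors are known regulators of nuclear genes for mitochondria.
Mrps27 (chr13:99344536-99344835, + strand): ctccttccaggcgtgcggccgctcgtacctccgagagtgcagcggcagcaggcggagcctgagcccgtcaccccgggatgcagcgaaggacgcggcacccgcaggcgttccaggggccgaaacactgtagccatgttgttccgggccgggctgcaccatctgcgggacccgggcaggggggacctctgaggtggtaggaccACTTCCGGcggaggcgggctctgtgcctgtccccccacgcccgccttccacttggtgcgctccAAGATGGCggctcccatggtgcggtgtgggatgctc
Mrps18b (chr17:35916391-35916690, − strand): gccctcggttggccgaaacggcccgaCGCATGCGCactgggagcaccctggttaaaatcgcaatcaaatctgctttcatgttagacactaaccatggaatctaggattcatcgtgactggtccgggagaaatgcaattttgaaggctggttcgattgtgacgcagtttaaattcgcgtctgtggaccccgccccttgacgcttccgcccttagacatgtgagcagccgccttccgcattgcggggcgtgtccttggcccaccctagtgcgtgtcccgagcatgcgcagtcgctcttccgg
Mrpl18 (chr17:12916042-12916341, − strand): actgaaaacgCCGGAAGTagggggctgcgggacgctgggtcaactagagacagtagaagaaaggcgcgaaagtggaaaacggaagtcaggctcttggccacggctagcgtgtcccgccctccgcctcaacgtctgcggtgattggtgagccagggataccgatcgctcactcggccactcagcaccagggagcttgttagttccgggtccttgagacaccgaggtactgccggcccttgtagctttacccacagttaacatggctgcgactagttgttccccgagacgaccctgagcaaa
Mrps11 (chr7:78782881-78783180, + strand): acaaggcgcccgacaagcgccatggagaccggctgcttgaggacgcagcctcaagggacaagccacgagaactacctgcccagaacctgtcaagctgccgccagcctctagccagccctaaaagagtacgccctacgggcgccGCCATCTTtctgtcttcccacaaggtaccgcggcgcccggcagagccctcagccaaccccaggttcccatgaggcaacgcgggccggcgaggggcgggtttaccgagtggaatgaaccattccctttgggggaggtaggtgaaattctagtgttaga
Mrps6 (chr16:92058086-92058385, + strand): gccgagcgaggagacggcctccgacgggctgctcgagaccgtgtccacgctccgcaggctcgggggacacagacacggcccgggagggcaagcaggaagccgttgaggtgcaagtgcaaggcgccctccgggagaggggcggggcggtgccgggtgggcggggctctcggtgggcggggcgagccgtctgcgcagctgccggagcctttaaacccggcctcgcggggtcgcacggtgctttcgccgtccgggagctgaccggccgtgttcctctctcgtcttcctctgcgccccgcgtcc
The promoter of Mrps27 held an ETS match and a YY1 match, that of Mrps18b an NRF1 match, that of Mrpl18 an ETS match and that of Mrps11 a YY1 match. The Mrps6 window held none of these letters. Neither did those of Mrpl2, Mrps9, Mrps36 and Mrpl12, all called lower in M. Of the 67 members with a promoter, 39 held no match, so the 5 shown do not stand for the members.

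The table of promoters held 67 of the 76 members. Of these 67, 12 held the YY1 sequence (17.9%, against 5.55% of the 7494 promoters of genes tested and 2.88% of all 27025), 11 the ETS sequence (16.4%, against 9.79% and 4%), and 7 the NRF1 sequence (10.4%, against 4.38% and 1.81%). At least 1 of the 3 was found in 28 members (41.8%), against 18.5% of genes tested and 8.27% of all promoters. The matches of different sequences overlapped in 0 members, and 2 members held 2 of the 3. The median GC content was 58.3% in members and 61.3% in genes tested. The members with a match changed by a median of -0.69 (log2) in M against WT and those without by -0.78, and the medians in E against WT were 0.12 in both. These are descriptions of letters in a window and were not tested.

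In the early phase the members lay slightly above wild type as a group, and no single one passed the test. The median difference E minus WT was 0.13 (log2) over the 76 members and 0.01 over all 9097 genes, and 71 of 76 members lay above 0, against 51.5% of all genes. Called higher were 0 of 76 members (0.462% of all genes were called higher), and 0 were called lower (1.65% of all genes). At an unadjusted p under 0.05 (limma, either direction) there were 17 of the 76 members, and 1279 of the 9097 genes. The 3 E arrays were all above the 3 WT arrays in 37 members (15% of all genes) and all below in 0 (14.7% of all genes). Between the lowest difference, Mrpl1 with -0.12, and the highest, Mrpl33 with 0.51, the lower and upper quartiles of the members were 0.05 and 0.17.

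Mrps18b, a small subunit protein at a position found only in mitochondria, came nearest to a call in E. It read 11.35, 11.30 and 11.45 in the 3 WT arrays and 11.73, 11.68 and 11.67 in the 3 E arrays. Every E array was above every WT array. The difference was 0.33 ± 0.08 (SE, n = 3 per group, limma, adjusted p = 0.0554). Mrpl33, a large subunit protein with a bacterial counterpart, had the largest difference but also the widest spread. It read 11.05, 11.72 and 10.94 in WT and 11.90, 11.82 and 11.50 in E, so the groups overlapped through WT replicate 2 (0.51 ± 0.21, SE, n = 3 per group, limma, adjusted p = 0.306). Mrpl1, the counterpart of the bacterial protein of the stalk through which spent transfer RNA leaves, read 10.01, 9.66 and 9.85 in WT and 9.75, 9.60 and 9.80 in E (-0.12 ± 0.13, SE, n = 3 per group, limma, adjusted p = 0.74). Its groups overlapped. Mrps27, an RNA-binding protein of the small subunit, read 8.34, 8.18 and 8.25 in WT and 8.62, 8.53 and 8.88 in E (0.42 ± 0.17, SE, n = 3 per group, limma, adjusted p = 0.293).

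The call of 0 members in E changed with how the model was fitted, and calls over all genes changed too. With the spread taken from the WT and E arrays alone, 9 members were called higher (278 of all genes higher, 478 lower). Leaving out M replicate 3 gave the same number, 9 (283 and 553 of all genes), and weighting arrays by their quality gave 10 (312 and 536). The 9 members were the same under the first and second of these settings: Mrpl4, Mrpl11, Mrpl21, Mrpl34, Mrps12, Mrps16, Mrps18b, Mrps26 and Mrps33, chosen after their values were seen. Mrps18b had an adjusted p of 0.00379 over the pair of groups alone, 0.00245 without M replicate 3 and 0.00234 with array weights (limma). The size of the group difference moved little. Its median lay between 0.10 and 0.14 when any single array of WT or E was left out. Then 0 members were called, against 0.143 to 0.242% of all genes higher and 0.901 to 1.03% lower.

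**Figure D1:**
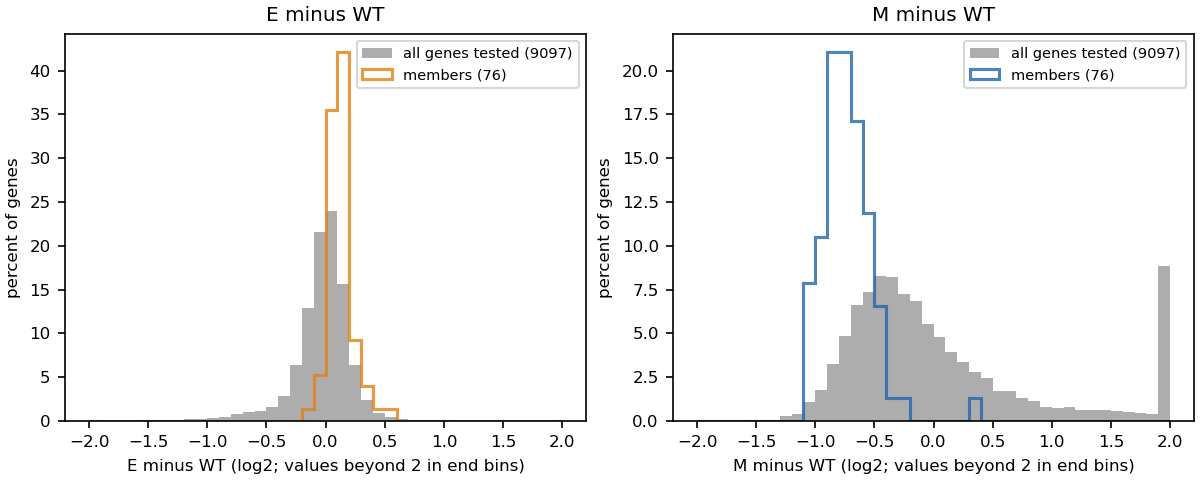
Differences E minus WT (left) and M minus WT (right) on the log2 scale, as percent of genes in bins, for all 9097 genes tested (grey) and the 76 members (outline); values beyond 2 are in the end bins. The members' median is 0.13 against 0.01 for all genes on the left and -0.72 against -0.19 on the right.

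In the medium phase almost every mitochondrial ribosomal protein gene was lower than in wild type, by a median of 0.72 on the log2 scale, a fold size of 1.65. Called lower were 74 of 76 members (43.5% of all genes tested), called higher was 1, Mrps6 (25.3% of all genes), and Mrpl33 was not called. The median over all genes tested was -0.19, so members lay 0.54 below it, and 75 of 76 were below it. This distance depends on the genes compared. With no brightness filter 21.1% of all 18194 genes were called lower, their median was 0.11, and members minus all genes was -0.84. In a fit of the 4549 brightest genes alone, members minus all genes was -0.39. Bright genes as a whole read lower in M: among the 4549 brightest of the 18194 genes, which included 73 of the members, 60.5% were called lower and the median was -0.34. The 3 M arrays were all below the 3 WT arrays in 74 members (45.5% of all genes) and all above in 1 (26.5% of all genes). A fall of at least 0.5 was called in 67 members (25% of all genes) and one of at least 1 in 6 members (1.81% of all genes).

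**Figure D2:**
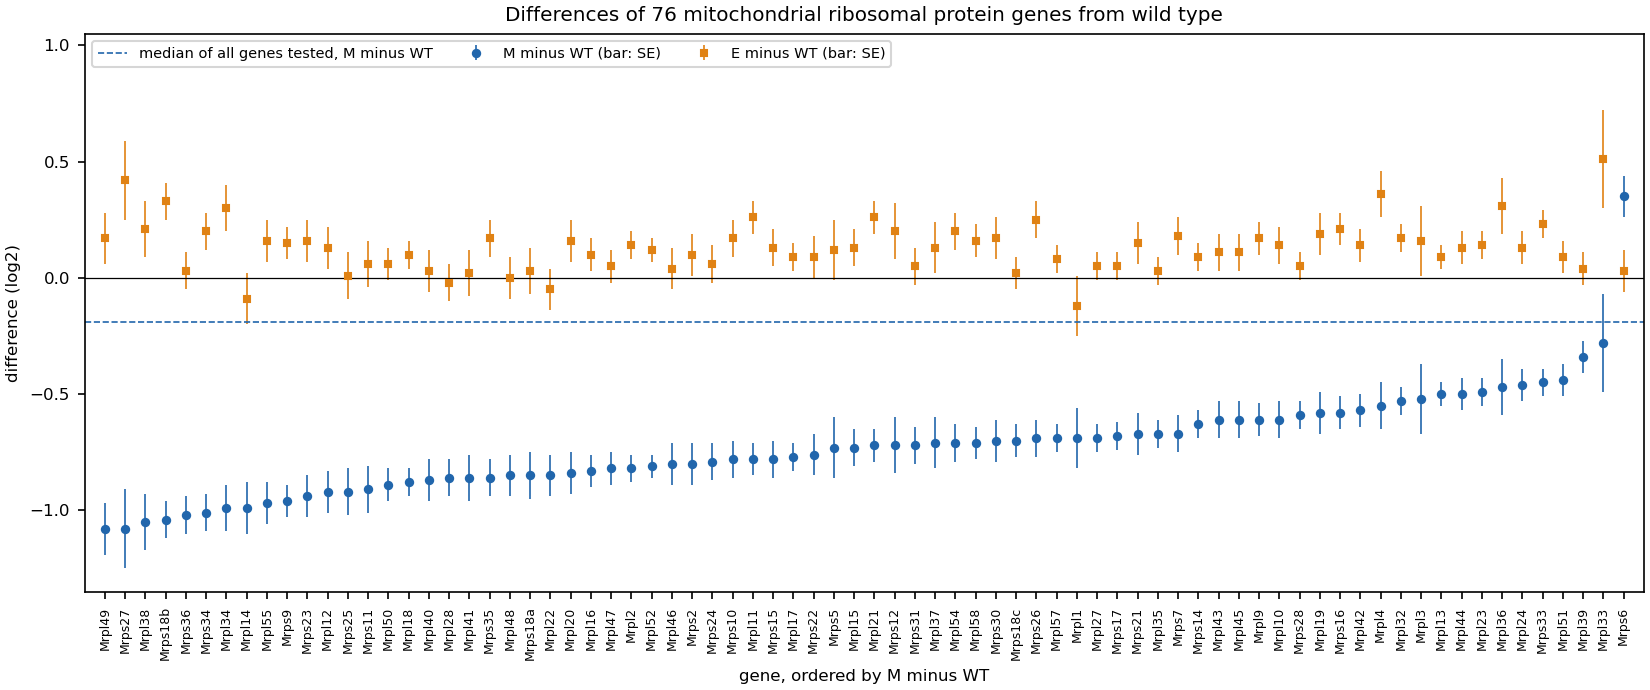
Difference from WT (log2, vertical axis) of each of the 76 members, ordered by M minus WT (horizontal axis), for M (circles) and E (squares), with the SE of the model as bars and the median M minus WT of all genes as a dashed line at -0.19. All circles but that of Mrps6, at 0.35, lie below the dashed line, with Mrpl33 within its SE of it, and 71 squares lie above 0.

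The 76 changes in M against WT had an SD of 0.22, against 1.15 over all genes tested. This spread was still wider than the median SE of the members, 0.08. By role, 29 of 30 large subunit members with a bacterial counterpart fell (median over the class -0.73). So did all 19 large subunit members classed as found only in mitochondria (-0.71). The 30 include Mrps18a, counted there for its relation to bacterial S18, a small subunit protein. By its position in the large subunit it belongs with those found only in mitochondria. In the small subunit 15 of 16 with a bacterial counterpart fell and 1 rose (-0.71), and all 10 found only in mitochondria fell (-0.89). Differences between these classes were not tested. The same classes had medians of 0.13, 0.11, 0.11 and 0.18 in E against WT, where 0 members were called.

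Among large subunit members, Mrpl52 had the smallest p. It read 13.55, 13.47 and 13.58 in WT, 13.69, 13.60 and 13.64 in E, and 12.71, 12.73 and 12.71 in M (-0.81 ± 0.05, SE, n = 3 per group, limma, adjusted p = 3.16e-07). Its 3 M arrays were almost equal, and its 3 groups did not overlap. Mrpl18, whose bacterial counterpart binds the small RNA of the large subunit, read 12.98, 12.95 and 13.04 in WT, 13.13, 13.10 and 13.04 in E, and 12.17, 12.11 and 12.05 in M (-0.88 ± 0.06, SE, n = 3 per group, limma, adjusted p = 3.19e-07). The M arrays were again well below the others, and the promoter shown above carries the ETS letters. Mrpl2, which in bacteria lies near the site of peptide bond formation, read 11.91, 11.96 and 11.99 in WT, 12.07, 12.11 and 12.10 in E, and 11.19, 11.11 and 11.11 in M (-0.82 ± 0.06, SE, n = 3 per group, limma, adjusted p = 5.21e-07). Its 3 groups were separate, in the order E, WT, M.

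Mrpl12, which also binds the mitochondrial RNA polymerase, read 13.27, 13.14 and 13.32 in WT, 13.37, 13.41 and 13.34 in E, and 12.42, 12.45 and 12.10 in M. M replicate 3 was the lowest, and all M arrays were below all WT arrays (-0.92 ± 0.09, SE, n = 3 per group, limma, adjusted p = 6.43e-06). Mrpl3 and Mrpl44 are large subunit genes in which inherited defects cause heart muscle disease, and Mrpl44 holds a fold related to RNA-cutting enzymes. Mrpl3 read 12.38, 12.21 and 12.38 in WT and 11.97, 12.06 and 11.37 in M, again with M replicate 3 far below the other two (-0.52 ± 0.15, SE, n = 3 per group, adjusted p = 0.00927). Mrpl44 read 11.89, 11.89 and 11.93 in WT and 11.48, 11.45 and 11.27 in M (-0.50 ± 0.07, SE, n = 3 per group, adjusted p = 7.55e-05). Mrps30, a large subunit protein in spite of its symbol, read 11.49, 11.36 and 11.52 in WT and 10.86, 10.83 and 10.58 in M (-0.70 ± 0.09, SE, n = 3 per group, adjusted p = 2.93e-05). For these 3 genes the WT and M arrays did not overlap. Mrpl1, lowest in E, fell in M to 9.15, 8.93 and 9.36 (-0.69 ± 0.13, SE, n = 3 per group, adjusted p = 0.000647).

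Falls of at least 1 were found in Mrps27, Mrpl49, Mrpl38, Mrps18b, Mrps36 and Mrps34, of which Mrpl49 and Mrpl38 were chosen after their values were seen. Mrps27 read 7.28, 7.40 and 6.84 in M, against 8.18 to 8.34 in WT (-1.08 ± 0.17, SE, n = 3 per group, limma, adjusted p = 0.000177), a fold size of 2.12. Of all members its mean lay nearest to the signal threshold, and its lowest array was again M replicate 3. Mrpl49 read 11.30, 11.11 and 11.31 in WT and 10.25, 10.33 and 9.92 in M (-1.08 ± 0.11, SE, n = 3 per group, adjusted p = 6.75e-06). Its M arrays lay far below its WT arrays. Mrpl38 read 9.40, 9.29 and 9.40 in WT and 8.23, 8.43 and 8.28 in M (-1.05 ± 0.12, SE, n = 3 per group, adjusted p = 1.63e-05). Mrps34, needed for a stable small subunit, read 12.55, 12.50 and 12.72 in WT and 11.54, 11.71 and 11.49 in M (-1.01 ± 0.08, SE, n = 3 per group, adjusted p = 1.49e-06). In both genes every M array was below every WT array. Mrps36, the member that is no longer counted as a ribosomal protein, read 12.22, 12.27 and 12.36 in WT, 12.29, 12.43 and 12.23 in E, and 11.36, 11.28 and 11.16 in M (-1.02 ± 0.08, SE, n = 3 per group, adjusted p = 7.58e-07).

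The 3 genes related to the bacterial protein S18, whose products occupy different places in the ribosome, all fell in M. The other genes of this paragraph belong to the small subunit. Mrps18b, at a small subunit position that bacteria lack, read 10.41, 10.38 and 10.20 in M, against 11.30 to 11.45 in WT (-1.04 ± 0.08, SE, n = 3 per group, adjusted p = 6.3e-07). Mrps18a, in the large subunit, read 11.53, 11.34 and 11.54 in WT, 11.36, 11.69 and 11.44 in E, and 10.55, 10.66 and 10.66 in M (-0.85 ± 0.10, SE, n = 3 per group, adjusted p = 1.6e-05). Mrps18c, which takes the bacterial S18 position, read 12.62, 12.56 and 12.62 in WT, 12.60, 12.57 and 12.68 in E, and 11.96, 11.94 and 11.79 in M (-0.70 ± 0.07, SE, n = 3 per group, adjusted p = 4.23e-06). In E the arrays of Mrps18a and Mrps18c overlapped those of WT, with differences of 0.03 ± 0.10 and 0.02 ± 0.07 (SE, n = 3 per group), while those of Mrps18b did not; the difference between the paralogs was not tested. Mrps12, part of the site that checks the match of codon and transfer RNA, read 11.20, 11.17 and 11.26 in WT, 11.38, 11.47 and 11.39 in E, and 10.64, 10.66 and 10.17 in M (-0.72 ± 0.12, SE, n = 3 per group, adjusted p = 0.000226). Mrps9, another small subunit protein with a bacterial counterpart, read 11.60, 11.47 and 11.57 in WT and 10.64, 10.54 and 10.59 in M (-0.96 ± 0.07, SE, n = 3 per group, adjusted p = 8.99e-07). For both the M arrays lay below every WT array.

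**Figure D3:**
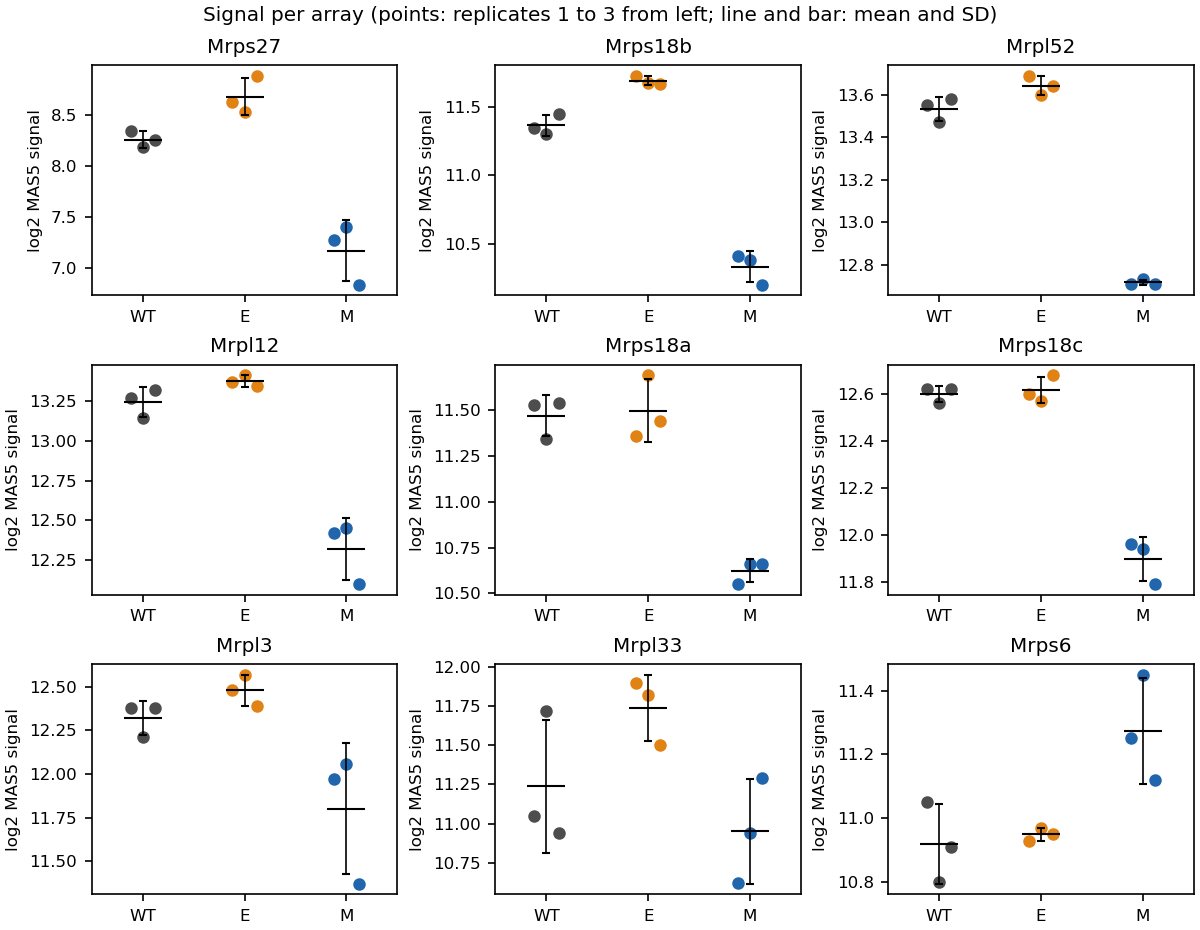
Log2 MAS5 signal of 9 members in each array, as points for replicates 1 to 3 of WT, E and M, with the group mean as a line and the SD as a bar; each panel has its own vertical axis, which does not start at 0. M is lowest in 7 panels without overlap, overlaps WT in Mrpl33 and is highest in Mrps6.

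The 3 highest differences M minus WT were those of Mrps6, Mrpl33 and Mrpl39. Mrps6, whose bacterial counterpart pairs with S18 on the platform of the small subunit, read 11.05, 10.80 and 10.91 in WT, 10.93, 10.97 and 10.95 in E, and 11.25, 11.45 and 11.12 in M. All M arrays were above all others (M minus WT 0.35 ± 0.09, SE, n = 3 per group, limma, adjusted p = 0.00606), but scaled on the spike-in controls the gene was called lower (-0.66, adjusted p = 0.00231). Its second probe set read 9.87, 9.65 and 9.66 in WT and 10.22, 10.18 and 9.98 in M, and it too rose (0.40 ± 0.10, SE, n = 3 per group, adjusted p = 0.00538 over all probe sets). In the RefSeq annotation Mrps6 overlaps Slc5a3, which encodes a sodium-coupled transporter of myo-inositol, and the signal of a probe set in such a pair depends on where its probes lie. Slc5a3 read 9.15, 8.78 and 8.80 in WT, 8.89, 9.01 and 9.13 in E, and 11.53, 11.43 and 11.56 in M (M minus WT 2.60 ± 0.11, SE, n = 3 per group, adjusted p = 1.08e-08). Slc5a3 was thus separate from WT in M and overlapped it in E, as Mrps6 did. The part of Slc5a3 transcripts in the Mrps6 signal was not tested.

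Mrpl33 read 10.62, 10.94 and 11.29 in M, with M replicate 3 the highest, and overlapped WT (-0.28 ± 0.21, SE, n = 3 per group, adjusted p = 0.25). Without M replicate 3 its difference was -0.45 with an adjusted p of 0.0429, which made 75 members called lower. Mrpl39, a large subunit protein found only in mitochondria, had the smallest called fall and was chosen after its values were seen. It read 13.18, 13.12 and 13.23 in WT and 12.92, 12.88 and 12.70 in M, with no overlap (-0.34 ± 0.07, SE, n = 3 per group, adjusted p = 0.00097). Its other probe set over the threshold fell by 0.60 (adjusted p = 3.07e-05 over all probe sets), nearer to the members' median.

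From the early to the medium phase the fall was larger, since E lay on the high side of WT. Called lower in M than in E were 75 of 76 members (43.9% of all genes), and Mrps6 was called higher (26.1% of all genes), by 0.32 ± 0.09 (SE, n = 3 per group, limma, adjusted p = 0.00977); scaled on spike-ins it was called lower instead (-0.69). The median difference M minus E was -0.86, against -0.19 over all genes. Mrps27 differed most (-1.50 ± 0.17, SE, n = 3 per group, adjusted p = 1.33e-05), followed by Mrps18b (-1.36 ± 0.08, SE, n = 3 per group, adjusted p = 5.37e-08), which also had the smallest p. Mrpl33, not called against WT, was called lower against E (-0.79 ± 0.21, SE, n = 3 per group, adjusted p = 0.00584), with all M arrays below all E arrays. In 37 members (48.7%) all E arrays lay above all WT arrays and all M arrays below them, against 9.3% of all genes. The comparisons share arrays, so they are not independent of each other.

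Averaged over the 76 members, the arrays read 11.80, 11.75 and 11.80 in WT, 11.93, 11.93 and 11.89 in E, and 11.09, 11.13 and 10.96 in M. The means of the 3 groups did not overlap, E being highest and M lowest. The size of the fall depended on how the arrays were scaled. The 12 probe sets of added poly-A controls averaged 8.94 to 9.27 in WT, 9.03 to 9.20 in E and 9.88 to 10.44 in M, and scaled on them the median over all genes was -1.20 in M against WT (966 higher, 7222 lower) and that of the members -1.74, with all 76 members lower. Scaling on controls and centring shift all genes of an array alike, so the distance of 0.54 between members and all genes is the same by construction. Centred on each array's median, members were at -0.83 and all genes at -0.29 (2039 higher, 4595 lower), and after quantile normalization at -0.68 and -0.28 (2019 higher, 4647 lower), a distance of 0.40, with 74 members lower and Mrps6 higher under both.

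Most members have further probe sets, which probe other stretches of the transcripts. Members had 156 probe sets with a single gene symbol, of which 80 were not used above. Of these 80, 47 lay over the signal threshold; 35 of them fell in M against WT, 1 rose (Mrps6) and 11 were not called, with a median of -0.64 and a range of -1.19 to 0.40. Over all 15382 probe sets at that threshold 39.2% were called lower and 22.5% higher. Of the 11 that were not called, 9 had a mean under 9. Called changes of opposite sign within 1 member were found in 0 genes. Of the 29 members with a further probe set over the threshold, 24 had at least 1 of them called in the direction of the probe set used. Averaging all probe sets of a gene in place of taking the brightest left 60 members lower and 1 higher, with a median of -0.61. Another 4 probe sets carry a member's symbol together with that of another gene and were left out, so that Mrpl30 and Mrpl53 are not analysed here. Probe sets marked as able to bind transcripts of other genes (suffix _s_at or _x_at) represented 7 and 3 members, and signals from copies such as pseudogenes are uncertain there.

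**Figure D4:**
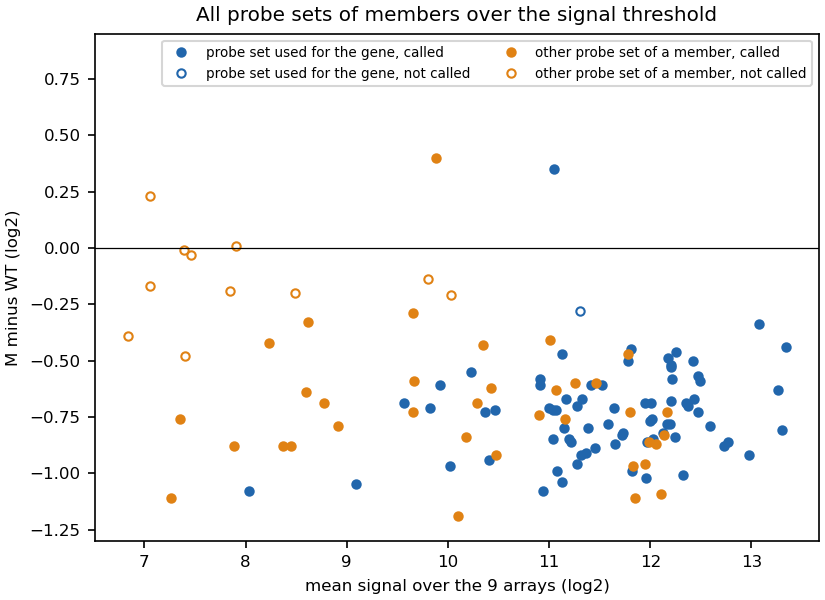
Difference M minus WT (log2, vertical axis) against the mean signal over the 9 arrays (log2, horizontal axis) for the 123 probe sets of members over the threshold; filled points were called, open points were not. The 2 called points above 0 are both of Mrps6, and of the 12 open points most lie at low signal.

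The other genes of mitochondrial translation moved with the members in M. Of ribosomal proteins with other names, all 4 measured fell: Dap3, which binds GTP, by 0.84, Ptcd3 by 0.78, Chchd1 by 0.69 and Gadd45gip1 by 1.11 (log2). Gadd45gip1, a large subunit protein, read 10.65, 10.59 and 10.68 in WT, 10.79, 10.79 and 10.81 in E, and 9.61, 9.58 and 9.41 in M (SE of the difference 0.08, n = 3 per group, limma, adjusted p = 3.83e-07). It was the gene of the 4 whose E arrays were all above WT. Of 11 translation factors 8 fell and 0 rose (median -0.60), among them Tufm (-0.74), which delivers transfer RNA to the ribosome, Tsfm (-0.60), which recharges Tufm with GTP, and Mtif2 (-0.60), the initiation factor. Of 26 genes for assembly of the ribosome and modification of its RNA, 21 fell and 1 rose (median -0.63). Those with the smallest p were Tfb1m (-0.98), which methylates the small subunit RNA, Mpv17l2 (-1.14) and Rbfa (-0.83). The gene that rose was Nsun4, an RNA methyltransferase, chosen after its values were seen; it read 8.36, 8.31 and 8.48 in WT, 8.67, 8.66 and 8.75 in E, and 8.75, 8.68 and 8.98 in M (0.42 ± 0.11, SE, n = 3 per group, adjusted p = 0.00704). In E, 0 genes of these lists were called.

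Of 14 genes for mitochondrial transcription and RNA processing 13 fell and 0 rose (median -0.57). Slirp, which stabilizes mitochondrial messenger RNA together with Lrpprc, fell by 0.80, and Lrpprc by 0.44. Tfam, which packages mitochondrial DNA, fell by 0.57, the RNA polymerase Polrmt by 0.46 and the helicase Supv3l1 by 0.87. Tfb2m, the remaining gene, was chosen after its values were seen. It read 10.71 to 10.75 in WT and 10.58 to 10.68 in M (-0.11 ± 0.07, SE, n = 3 per group, limma, adjusted p = 0.169).

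Of 8 regulators of mitochondrial genes 4 fell and 1 rose in M (median -0.32), shares near those of all genes (43.5% lower, 25.3% higher). Nrf1 read 8.87, 9.09 and 8.67 in WT and 8.60, 8.42 and 7.67 in M (-0.65 ± 0.22, SE, n = 3 per group, adjusted p = 0.0204), with M replicate 3 lowest. Gabpa fell by 0.33 and the coactivator Pprc1 by 0.65. Myc read 11.45, 11.32 and 11.56 in WT, 11.72, 11.66 and 11.53 in E, and 11.87, 11.83 and 11.71 in M (0.36 ± 0.08, SE, n = 3 per group, adjusted p = 0.00247). Ppargc1a lay under the signal threshold in every array, between 2.26 and 5.88, and was not tested.

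As a reference, 13 of 45 tested proteins of the cytosolic ribosome fell in M and 2 rose (median -0.10, above the -0.19 of all genes). Changes in this list ran from -0.81 to 2.80, and its median signal was high in every array, at 14.49 to 14.80. Of all genes tested 43.5% fell and 25.3% rose. Of 70 subunits of the respiratory chain and ATP synthase 64 fell and 0 rose (median -0.46). Differences between these lists and the members were not tested.

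**Figure D5:**
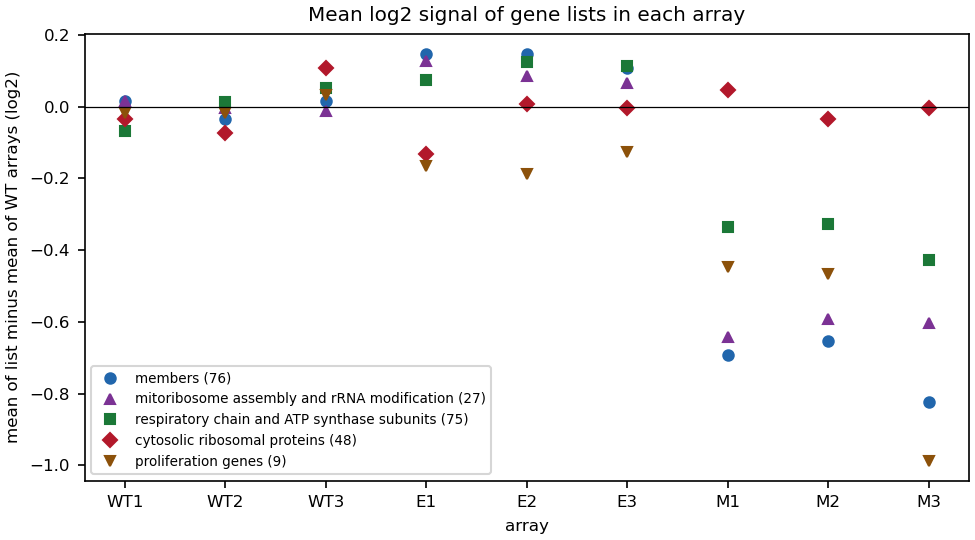
Mean log2 signal of 5 gene lists in each array minus the mean of the 3 WT arrays (vertical axis, log2) for the 9 arrays (horizontal axis); the number of genes on the array is given with each list. The members lie above 0 in E and lowest in M3, cytosolic ribosomal proteins stay near 0, and proliferation genes lie below 0 in E and M.

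Many members start close to another gene. Of the 67 members with a promoter in the table, 24 (35.8%) had a gene on the opposite strand that starts within 1000 bases and runs the other way, against 19% of genes tested and 10.5% of all promoters. Of these partners 19 were tested, and 15 of them fell in M against WT, 1 rose and 3 were not called (median -0.58), against 43.5% lower and 25.3% higher of all genes tested. Mrpl46 and Mrps11 are each other's partner, with starts 42 bases apart, and both count among the 19, a pair picked after its values were seen. Mrps11 read 11.65, 11.63 and 11.64 in WT and 10.76, 10.92 and 10.50 in M (-0.91 ± 0.10, SE, n = 3 per group, adjusted p = 1.22e-05). Mrpl46 read 11.42, 11.35 and 11.46 in WT and 10.71, 10.72 and 10.39 in M (-0.80 ± 0.09, SE, n = 3 per group, adjusted p = 1.74e-05). In both genes M replicate 3 was lowest and no M array reached WT.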

How the data were processed

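Total RNA of 9 samples was labelled for 3′ expression arrays, per the labels' protocols. The deposited values are log2 signals made with MAS5, per the submitters' processing notes; its version and settings are not given in the sources used here. Of 45101 probe sets, 34958 had 1 gene symbol in the platform annotation, 932 had several and 9211 were not listed; the last 2 kinds were left out. RefSeq held the gene ID of 34754 probe sets. Tests used limma 3.58.1 (R 4.3.3), with 1 linear model over all 9 arrays with an intensity trend, and p was adjusted by Benjamini-Hochberg over the 9097 genes tested. The pipeline was tested on simulated data. No batch is given in the labels, and nothing says how many mice stand behind an array, so p-values measure the spread between these samples. The number of arrays limits the precision.

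Members and lists were chosen with earlier results of these data known, and no list was tested as a set. The members named by rule are those with the 5 smallest p in each direction, the largest and smallest difference of each comparison, any called against the majority, and 10 set by role (Mrpl3, Mrpl12, Mrpl44, Mrps12, Mrps18a, Mrps18b, Mrps18c, Mrps30, Mrps34, Mrps36). Further members are marked in the text as chosen or picked after their values were seen. From each other list come the 3 with the smallest p in M against WT and 10 fixed genes. Nsun4 and Tfb2m were named outside this rule. Alternatives changed the offset, filter, scaling, variance model, arrays used and choice of probe set.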

Additional observations from a re-analysis of the deposited data

How the results depend on the processing

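The fall in M kept its direction under every alternative tried. The median M minus WT of the members was -0.83 centred on the array median, -1.74 scaled on spike-ins and -0.61 with the mean of probe sets; the median M minus E was -0.77 after quantile normalization, -0.98 centred, -1.87 on spike-ins, -0.80 with array weights and -0.74 with the mean of probe sets. Members called higher in M by limma numbered 0 against WT (10.6% of all genes) and 0 against E (11.3%) on spike-ins, where 0 members lay above 0. Centred, 0 were called higher against E (22.5% of all genes), and 1 lay above 0 (Mrps6, 0.20, limma, adjusted p = 0.0836). Members higher in E than WT numbered 10 with array weights (3.43% of all genes) and 9 with only the 2 groups compared (3.06% of all genes). The cause was not tested. In both fits the SE of Mrps18b was 0.06, against 0.08 in the main fit. Leaving out 1 array at a time gave 0 to 9 members higher in E than WT (0.143 to 3.11% of all genes). Lower in M were 74 to 75 members against WT and 75 against E (39.5 to 43.7% of all genes in both comparisons). The medians were 0.10 to 0.14 (E minus WT), -0.78 to -0.70 (M minus WT) and -0.90 to -0.78 (M minus E). The sign turned for Mrps6 on spike-ins (M minus WT -0.66, M minus E -0.69), and for small differences in E: Mrps18c -0.01 after quantile normalization, Mrpl1 0.09 and Mrps9 -0.02 with the mean of probe sets. Without 1 array at a time, Mrps36 lay between -0.03 and 0.07, Mrps6 between -0.03 and 0.10, Mrps18a between -0.07 and 0.10, and Mrps18c between -0.01 and 0.04. With the mean of probe sets Mrpl1 was not called in M against WT (-0.20, adjusted p = 0.223), 60 members were lower, and all genes split into 2093 higher and 2970 lower; with no brightness filter they split into 4032 and 3848, with 74 members lower. Same-numbered arrays of different groups showed no clear shared deviation (correlations -0.10 to 0.08). So few arrays cannot exclude that the numbers pair them, and the labels do not state it. With replicate number as a block the medians were 0.13 (E minus WT), -0.72 (M minus WT) and -0.86 (M minus E). In that fit 0 members were called higher in E (0.297% of all genes), 74 lower in M than WT (42.3%) and 75 lower in M than E (43%). Of all genes, 2253 were then higher and 3847 lower in M against WT.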
